A study of Mus musculus with 9 samples.

Results

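The comparison described here asked how the transcriptome of cytokine-treated J774A.1 cells differed when Q11 was added together with the cytokines. It used 6 of the 9 libraries of the series, 3 from cells that received IL-4 and IL-13 (the M2 group) and 3 from cells given Q11 with both cytokines from the start of the induction (the Q11 group). Of 26157 genes in the deposited expression table, 13604 reached 1 TPM (transcript level normalised for gene length and scaled to a fixed total per library) in at least 3 of these 6 libraries and were analysed. At the edge of that rule, 563 genes reached 1 TPM in exactly 3 libraries and were kept, 782 reached it in exactly 2 and were left out, and 11995 reached it in all 6.

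J774A.1 is a mouse macrophage-like tumour cell line, so all libraries come from 1 line and the replicates are samples of it. The labels do not say whether replicates were separate cultures, and the p-values below then measure only the spread between these samples, which may be technical. IL-4 and IL-13 were used at 10 ng/mL in the M2 group, while the labels give no cytokine concentration for the Q11 group. Neither the length of the induction nor the dose of Q11 is stated in the labels. By the series title, Q11 inhibits CYP2E1, a cytochrome P450 enzyme best known from hepatocytes, and the title puts the study in the setting of macrophage polarization and hepatocellular carcinoma. The control group, 3 libraries of untreated cells, serves below mainly to show how far the cytokines alone moved a gene.

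IL-4 and IL-13 bind receptors that share the IL-4 receptor alpha chain and act through JAK kinases on the transcription factor STAT6, which switches on the genes of alternative (M2) activation. These include lectin receptors such as the mannose receptor, arginase 1, chitinase-like proteins and several chemokines, together with feedback inhibitors of the SOCS family. Macrophages of this kind are abundant in many tumours, where their growth factors, proteases and immunosuppressive cytokines are studied.

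The label of the cells was checked against marker genes. All 10 macrophage markers (among them Csf1r, Cd68, Itgam, Spi1 and Lyz2) were present, at 11.8 to 3766 TPM, and their summed level was 9331 to 10064 TPM in the M2 libraries and 9652 to 9753 TPM in the Q11 libraries. Longer lists of markers of 5 other cell types had few members at 1 TPM or more. Of 8 T cell markers 3 had a row, and Cd5 was at 9.85 to 13.6 TPM in these 6 libraries while Cd3d and Cd4 stayed under 0.5 TPM. All 6 B cell markers had a row, and Ighm was at 14.6 to 17.9 TPM with the cytokines and 15.6 to 18.0 TPM with Q11, while Pax5 was listed at 0 throughout and Cd79a reached 1.29 TPM. Of 8 hepatocyte markers 4 had a row, and Afp, alpha-fetoprotein, was at 22.3 to 27.5 TPM. Of 7 fibroblast markers 3 had a row, with Acta2 at up to 1.75 TPM and Col1a1 at up to 0.255 TPM. Of 6 epithelial markers Cdh1 and Cldn4 had a row, at up to 0.0435 and 0.227 TPM. For Cd5, Ighm, Afp and Acta2 the M2 and Q11 values overlapped.

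Q11 replicate 2 and Q11 replicate 3 were not independent as deposited. Of 19471 genes read in replicate 3, 2086 (10.7%) stood in replicate 2 at the same fraction of their replicate 3 value, 52.6%, to 5 decimals, and 11 lay below that fraction. In the other pairs of libraries the most frequent ratio took 3.59% to 6.19% of genes. Against any other library, between 2228 and 3271 genes lay below it. Such a pattern is what a column holding all reads of replicate 3 plus other reads gives, and the deposited column held 32193523 reads by the count recovered from its values, against 15815844 to 17095782 in the other 8 libraries. Replicate 3 was therefore taken out of replicate 2 by weighted subtraction, which left 15336278 reads, and every value below for Q11 replicate 2 is the separated one unless the deposited column is named.

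No gene passed the test for a difference between the Q11 and M2 groups. By limma on log2(TPM + 1), 0 of 13604 genes (0%) passed a Benjamini-Hochberg adjusted p of 0.05, and the smallest adjusted p was 0.220. At an unadjusted limma p under 0.05 there were 898 genes (6.60%), of which 495 (3.64%) were higher with Q11 and 403 (2.96%) lower. The columns as deposited gave 0 genes past the adjusted threshold and 1529 at the unadjusted one, and limma-voom on recovered reads gave 0 and 1075. The M2 group against control, on the same genes but with all 9 libraries in the fit, gave 1316 (9.67%) past the adjusted threshold. With all 9 libraries in the fit, Q11 against M2 gave 0.

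The intervals state how large a difference the 6 libraries leave room for. The 95% interval of the difference lay wholly within 2-fold in either direction for 12023 genes (88.4%) and within 1.5-fold for 10369 genes (76.2%). The interval reached 0.20 to either side of the estimate in the median gene on the log2(TPM + 1) scale, and this margin varied with the level of the gene. Among 1901 genes above 100 TPM the median margin was 0.10, and 98.3% had an interval within 1.5-fold. Among 4714 genes at 20 to 100 TPM it was 0.14, and 97.4% had an interval within 1.5-fold. Among 3478 genes at 5 to 20 TPM it was 0.24, with 93.7% of intervals within 2-fold, and among 3511 genes under 5 TPM it was 0.59, with 62.9% within 2-fold. A difference of 2-fold was thus outside the interval for nearly all genes above 20 TPM, while for low genes it often was not. Because 1 is added to each value, folds on this scale understate the differences of low genes.

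**Figure D1:**
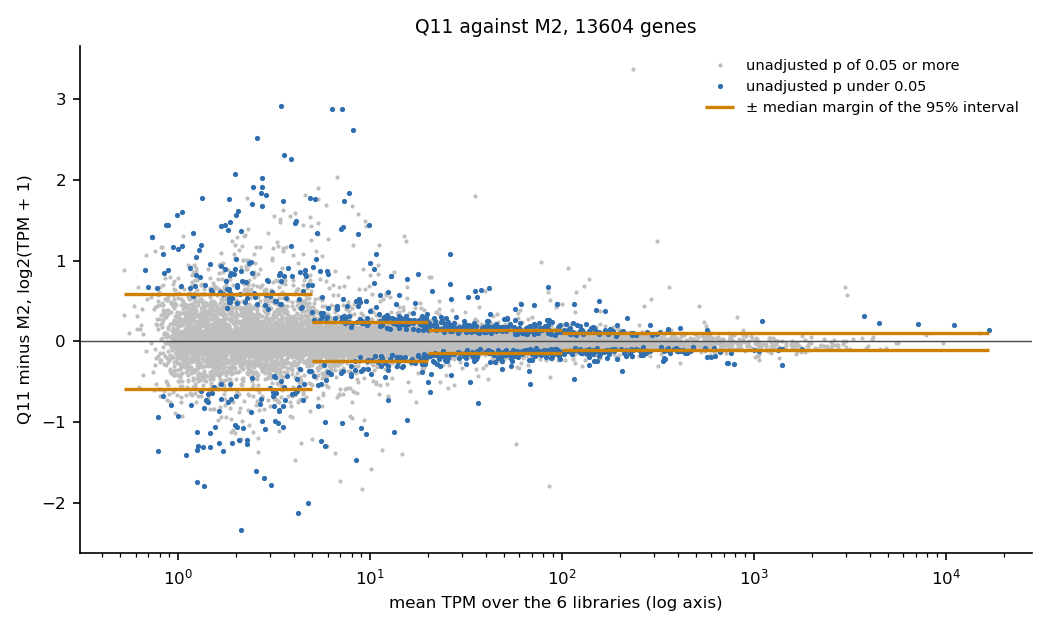
Difference between the Q11 and M2 groups (vertical axis, log2(TPM + 1)) against mean TPM over the 6 libraries (log axis) for 13604 genes. Blue points are the 898 genes with an unadjusted p under 0.05, and orange lines mark the median margin of the 95% interval to either side in each range of level, which narrows from 0.59 under 5 TPM to 0.10 above 100 TPM.

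The genes that mark alternative activation were at nearly the same level with and without Q11. Mrc1, the mannose receptor (chr2:14229392-14332057, plus strand, GRCm38), was at 85.8, 87.1 and 89.1 TPM in the M2 libraries and at 81.1, 81.3 and 87.3 TPM in the Q11 libraries. The highest Q11 library lay above 2 of the M2 libraries, so the groups overlapped. The difference was -0.07 (95% interval -0.17 to 0.03), or -4.68% with an interval from -11.0% to 2.14%. In control cells Mrc1 stood at 19.4, 19.1 and 20.4 TPM, and the M2 group was 2.10 higher on the log2 scale (2.00 to 2.19; limma adjusted p = 2.26e-08). Both differences use the same M2 libraries and are not independent. In bulk RNA, less transcript per cell and fewer cells with the transcript cannot be told apart.

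Mgl2 and Clec10a encode related galactose-type lectins and lie next to each other on chromosome 11 (Mgl2 at chr11:70130329-70137550 and Clec10a at chr11:70156197-70170834, both GRCm38). Mgl2 was at 1009, 911 and 1091 TPM with the cytokines and at 986, 900 and 955 TPM with Q11 added, a difference of -0.08 (-0.25 to 0.09). Clec10a was at 225, 211 and 234 TPM and at 215, 199 and 212 TPM, a difference of -0.10 (-0.21 to 0.02). In both genes the M2 and Q11 values interleaved. The M2 group was above control by 2.92 for Mgl2 and by 1.56 for Clec10a, so the lower ends of the Q11 intervals were small beside the cytokine response. Slc7a2, a transporter of arginine and other cationic amino acids, was at 19.5, 16.9 and 19.9 TPM and at 18.1, 17.5 and 18.6 TPM with Q11 (-0.05, -0.23 to 0.12), against a cytokine response of 1.55.

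Arg1, arginase 1, the textbook mouse M2 enzyme, was low and variable. It stood at 2.86, 1.63 and 6.20 TPM in the M2 libraries and at 1.02, 3.78 and 2.43 TPM in the Q11 libraries, which corresponds to 32, 17 and 66 reads and to 11, 38 and 27 reads. The highest and lowest of the 6 values lay in different groups, but the others were mixed. The difference was -0.38 with an interval from -1.44 to 0.68, so a difference of 2-fold in the lower direction lay inside it. Without M2 replicate 3, the library with the highest value, the difference was 0.01. The cytokine response of Arg1 was 1.69 (0.76 to 2.63; limma adjusted p = 0.0342).

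**Figure D2:**
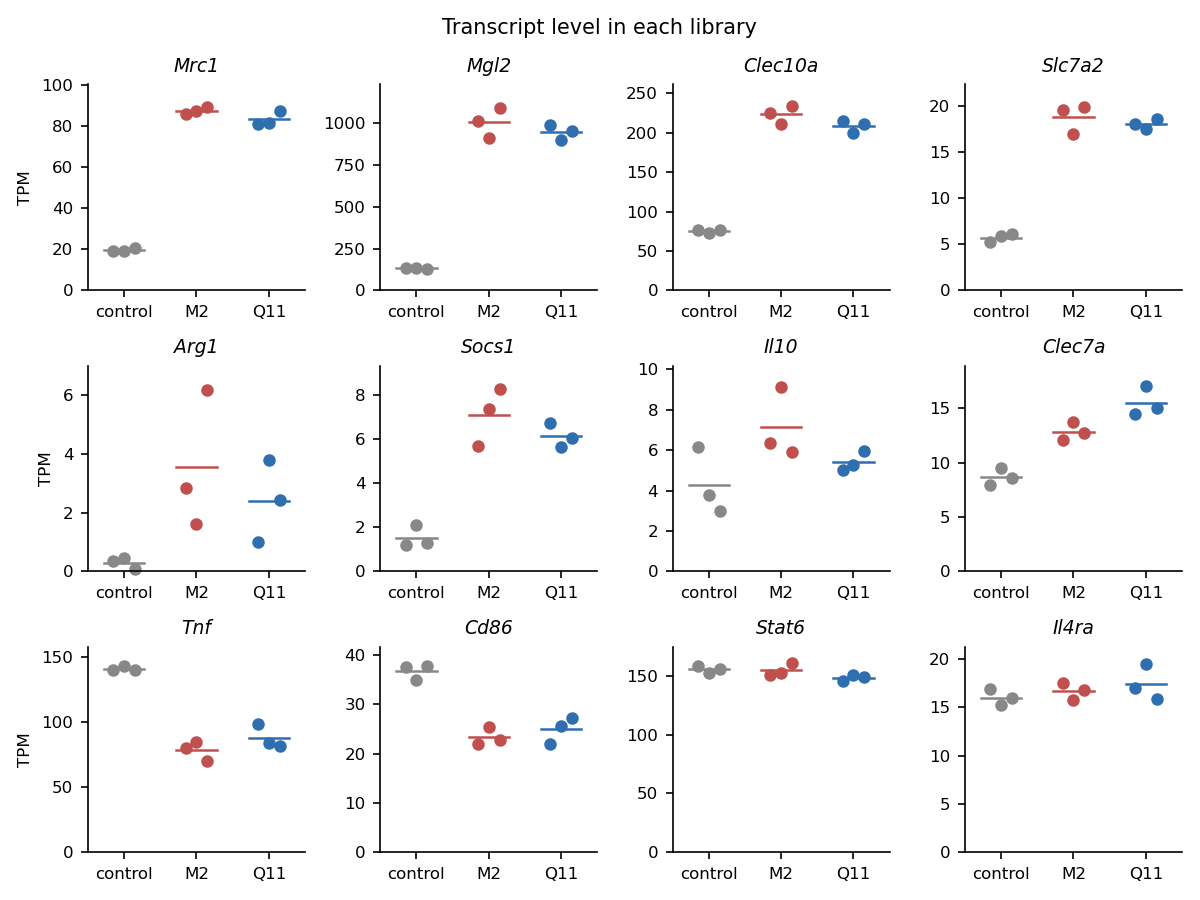
Level of 12 genes in each library (vertical axes, TPM, each from 0) for control, M2 and Q11. Points are libraries and lines are group means. For Mrc1, Mgl2, Clec10a and Slc7a2 the Q11 points lie among or just under the M2 points and far above the control points, while for Arg1 the points of both treated groups are widely spread.

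Of 40 M2 markers listed, 22 passed the level filter, and the other members were too low or not in the table. Among the 22, 1 was higher at an unadjusted p under 0.05 and 0 were lower, and 21 had an interval within 2-fold, Arg1 being the exception. Their median difference was -0.09, beside 0.00 over all genes tested, and 16 of the 22 lay below zero, while 6881 of 13604 genes (50.6%) lay above it. Without M2 replicate 3 the median was -0.02, with 14 of 22 below zero, and without Q11 replicate 2 it was -0.05. The lowest end of any interval among the 18 markers with a mean of at least 5 TPM was -0.61, for the chemokine Ccl24, and the highest end was 0.53, for the chemokine Ccl7.

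The marker at the unadjusted threshold was Clec7a, the beta-glucan receptor dectin-1. It was at 12.1, 13.8 and 12.7 TPM with the cytokines and at 14.4, 17.1 and 15.0 TPM with Q11, and all Q11 values were above all M2 values. The difference was 0.25 (0.05 to 0.46; limma adjusted p = 0.734), in the same direction as the cytokine response of 0.51. Ccl7, a monocyte chemoattractant, was at 525, 566 and 413 TPM and at 626, 541 and 602 TPM (0.25, -0.03 to 0.53). Ccl24, an eosinophil chemoattractant, was at 14.1, 12.0 and 15.3 TPM and at 12.6, 9.08 and 12.1 TPM (-0.28, -0.61 to 0.04). In both chemokines the groups overlapped.

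Several familiar M2 and M1 genes were too low to pass the filter. For Retnla, a secreted resistin-like protein, a single read was found among the 6 libraries, in M2 replicate 2. Chil3, a chitinase-like protein, had 4, 0 and 4 reads with the cytokines and 6, 1 and 8 with Q11 added, where untreated cells had 0 in each. Pparg, a lipid-sensing nuclear receptor, had 25, 12 and 11 reads and 17, 16 and 12 reads. The fit with no filter on low values, which includes these genes, gave 0 genes past the adjusted threshold. Differences at these counts are not interpreted, and a count of 0 still allows 3 reads in a library by counting error alone.

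**Figure D3:**
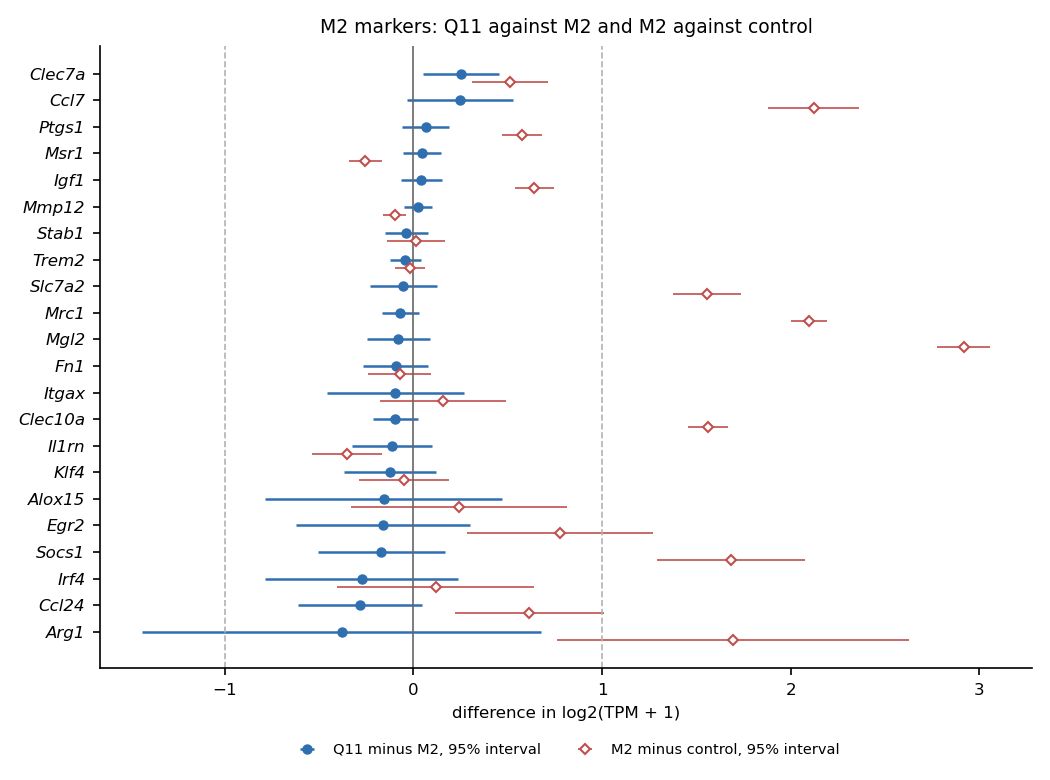
Differences with 95% intervals (horizontal axis, log2(TPM + 1)) for the 22 M2 markers that passed the filter, Q11 minus M2 in blue and M2 minus control in red, with dashed lines at 2-fold. Blue intervals stay within 2-fold in 21 of 22 markers, Arg1 excepted, and the red points of Mgl2, Ccl7, Mrc1, Arg1, Socs1, Clec10a and Slc7a2 lie beyond 2-fold; both contrasts share the M2 libraries.

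The receptor and signalling genes upstream of these markers were at similar levels in both groups. Il4ra, the shared receptor chain, was at 17.5, 15.8 and 16.7 TPM with the cytokines and at 17.0, 19.5 and 15.8 TPM with Q11 (0.06, -0.15 to 0.26), with overlapping groups. Stat6 (chr10:127642986-127660957, plus strand, GRCm38) was at 151, 152 and 161 TPM and at 145, 150 and 148 TPM. Its Q11 values all lay under the lowest M2 value, by less than 1 TPM at the closest, and the difference was -0.06 (-0.15 to 0.03). The kinase genes Jak1 (0.00, -0.12 to 0.13), Jak3 (-0.01, -0.18 to 0.17) and Tyk2 (0.03, -0.12 to 0.18) were equally close to zero.

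Socs1, a feedback inhibitor that STAT6 signalling induces, was at 5.68, 7.34 and 8.27 TPM and at 6.73, 5.65 and 6.06 TPM (-0.17, -0.51 to 0.17), against a cytokine response of 1.69. Of the 27 tested genes of IL-4 and IL-13 signalling, all had an interval within 2-fold. Only Pik3cg, a catalytic subunit of PI3-kinase, reached the unadjusted threshold (25.3, 26.0 and 25.2 TPM and 27.0, 29.7 and 27.2 TPM, a difference of 0.13). The median over the list was -0.01, and -0.03 to 0.01 over 19 alternative settings. Ppard, a nuclear receptor for fatty acids, had the lowest difference among its better expressed members (8.55, 8.21 and 9.05 TPM and 7.87, 7.91 and 6.82 TPM, a difference of -0.17, -0.39 to 0.04), and its groups did not overlap. Over all genes tested, groups did not overlap in 1740 (12.8%).

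Genes of the opposite, inflammatory (M1) state did not show a common direction. Of 33 tested, 19 lay above zero and 14 below, and 1 was higher and 2 lower at an unadjusted p under 0.05. All 33 intervals lay within 2-fold, and the median difference was 0.01. In 5 of the 33 all Q11 values lay under all M2 values and in 0 above them. Over all genes 5.70% lay wholly under and 7.09% wholly above. Tnf was at 80.0, 84.7 and 70.2 TPM with the cytokines and at 98.8, 83.7 and 81.5 TPM with Q11 (0.17, -0.06 to 0.39). Only Q11 replicate 1 stood above all M2 libraries for Tnf. Cd86, a costimulatory ligand, was at 22.0, 25.3 and 22.7 TPM and at 22.0, 25.6 and 27.2 TPM (0.09, -0.13 to 0.30). The chemokine Ccl3 had the highest difference (987, 1175 and 868 TPM and 1149, 1166 and 1264 TPM, 0.25) and Cd40, a costimulatory receptor, the lowest among members at 5 TPM or more (6.19, 6.27 and 6.88 TPM and 5.38, 5.15 and 4.70 TPM, -0.29, -0.53 to -0.06). Nfkb2, an NF-kappaB subunit, was the other lower gene (-0.10, -0.18 to -0.01).

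The effector gene Nos2, inducible nitric oxide synthase, and the cytokine genes Il1b and Il6 did not pass the filter. The M2 libraries held 11, 1 and 33 reads of Nos2, and the Q11 libraries 14, 5 and 13. Il1b had 1, 6 and 6 reads and 8, 4 and 14, and Il6 had 0, 6 and 5 reads and 0, 0 and 1. None of them passed the adjusted threshold in the fit with no filter on low values, and differences at these counts are not interpreted.

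Among 40 interferon response genes tested, 2 (5.00%) were higher and 2 (5.00%) lower at the unadjusted threshold, beside 3.64% and 2.96% of all genes. In 3 all Q11 values lay above all M2 values and in 6 under them, beside 7.09% and 5.70% of all genes. Of the 40, 24 lay below zero. The median was -0.01, and -0.04 without M2 replicate 1. Igtp, an interferon-inducible GTPase, was at 11.9, 11.5 and 14.1 TPM and at 14.5, 16.6 and 16.2 TPM (0.31, 0.09 to 0.54), and its groups did not overlap. Irf7, a transcription factor of the pathway, was the lowest of the better expressed members and varied within the Q11 group, at 9.98, 5.93 and 6.31 TPM (-0.13, -0.56 to 0.30). MHC class II and costimulation genes had a median of -0.06, with 13 of 16 below zero, and 0 higher and 1 lower at the unadjusted threshold. That median was -0.03 without M2 replicate 3. H2-DMb2, a chaperone subunit of peptide loading, was at 6.38, 6.36 and 8.62 TPM and at 6.13, 4.95 and 5.50 TPM (-0.31, -0.64 to 0.03).

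Products through which macrophages act on tumours were also close to their M2 levels. Of 36 tested, 0 were higher and 1 lower at the unadjusted threshold, all intervals lay within 2-fold, and the median was -0.05 with 25 of 36 below zero. The median was -0.03 without M2 replicate 3. Il10, an immunosuppressive cytokine, was at 6.38, 9.13 and 5.91 TPM and at 5.03, 5.25 and 5.96 TPM (-0.33, -0.71 to 0.06). Its highest value was M2 replicate 2, and the lowest M2 value lay within the Q11 range. Tgfb1, encoding another suppressive cytokine, was at 238, 250 and 254 TPM and at 237, 258 and 220 TPM (-0.05, -0.20 to 0.09). Mmp9, a matrix metalloproteinase, was at 195, 183 and 236 TPM and at 187, 210 and 197 TPM (-0.04, -0.26 to 0.18). Cd274, the checkpoint ligand PD-L1, was at 8.40, 8.25 and 7.10 TPM and at 8.93, 8.02 and 8.18 TPM (0.07, -0.15 to 0.30). Without M2 replicate 3 the difference for Mmp9 was 0.06, and without Q11 replicate 3 that for Tgfb1 was 0.00.

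The cathepsin gene Ctsk was the member at the unadjusted threshold, at 444, 429 and 455 TPM and at 392, 417 and 422 TPM (-0.11, -0.21 to -0.01). Spp1, osteopontin, among the most abundant of these transcripts, was at 3956, 4265 and 4116 TPM and at 4314, 4225 and 4232 TPM (0.05, -0.05 to 0.15). Vegfa, the main angiogenic factor, had 0, 1 and 1 reads with the cytokines and 1, 6 and 0 reads with Q11 added, and its relative Vegfb was at 107, 97.5 and 98.3 TPM and at 96.7, 97.6 and 94.3 TPM (-0.07, -0.17 to 0.04).

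The gene of the enzyme that Q11 is named for was close to undetected. Cyp2e1 had 0 reads in each M2 library and 0, 0 and 1 reads in the Q11 libraries, and untreated cells had 0, 1 and 0. The single read in Q11 replicate 3 is worth 0.093 TPM, and the 1 read in the deposited column of Q11 replicate 2 is accounted for by it. These counts concern the transcript only, and enzyme was not measured. Among 19 other cytochrome P450, electron donor and aryl hydrocarbon receptor genes tested, 0 passed the unadjusted threshold in either direction, 14 lay above zero, 0 had groups without overlap, and the median difference was 0.04. The median was 0.01 to 0.06 over the alternative settings, lowest without Q11 replicate 3 and highest without Q11 replicate 2. Relative to the mean of the 6 libraries, the median level of the list was -0.01, -0.02 and -0.02 for M2 and 0.03, 0.00 and 0.01 for Q11, so the groups did not overlap on this measure. This was not particular to the list. The groups also did not overlap, with Q11 lower, for interferon response, tumour-associated macrophage products, ATF4 amino acid stress, and MHC class II and costimulation. Cyp51, which demethylates lanosterol, was at 123, 124 and 125 TPM and at 121, 126 and 135 TPM (0.04, -0.07 to 0.14). Por, the reductase that passes electrons to microsomal P450 enzymes, was at 154, 153 and 168 TPM and at 149, 170 and 159 TPM (0.01, -0.13 to 0.15). Ahr, the aryl hydrocarbon receptor, had the highest difference (2.58, 3.12 and 3.33 TPM and 4.14, 4.50 and 3.25 TPM, 0.30, -0.07 to 0.68), with overlapping groups. Ephx1, microsomal epoxide hydrolase, had the lowest difference (7.55, 7.23 and 6.11 TPM and 7.08, 5.01 and 4.82 TPM, -0.28, -0.64 to 0.09) and Cyp4v3, a fatty acid hydroxylase, the highest among members at 5 TPM or more (0.08, -0.04 to 0.21).

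**Figure D4:**
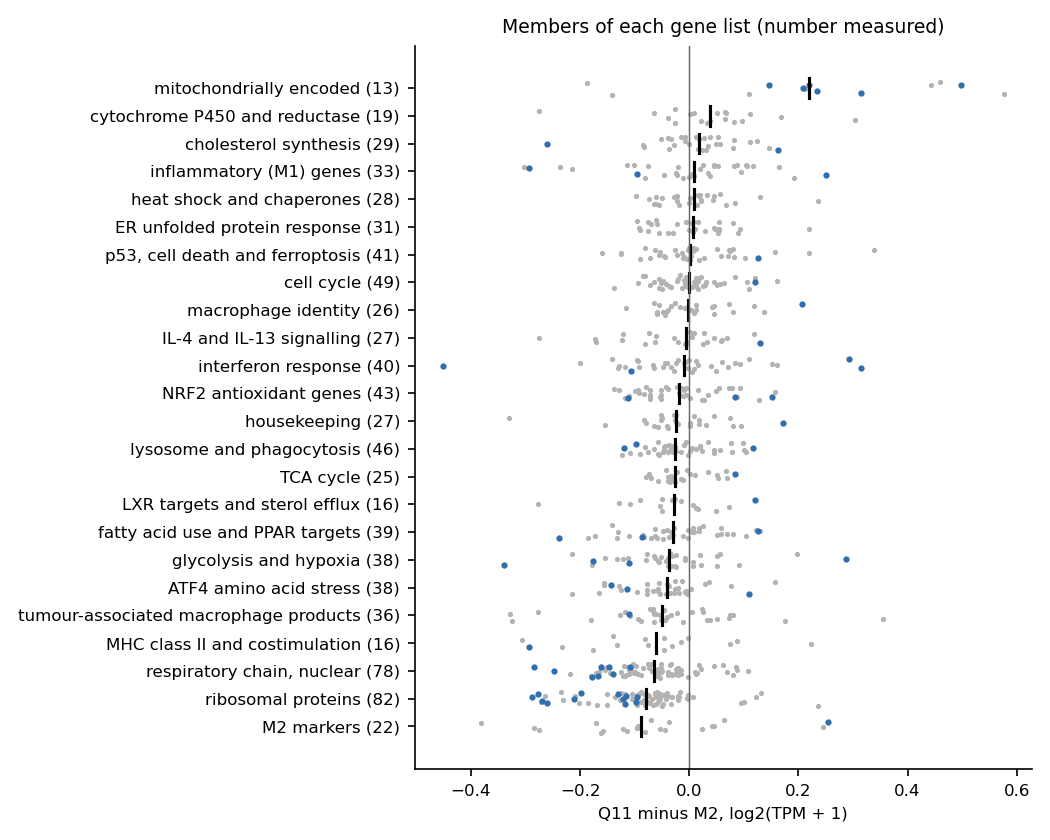
Differences between the Q11 and M2 groups (horizontal axis, log2(TPM + 1)) of the tested members of 24 gene lists, ordered by median (black bars), with the number tested in brackets. Blue points have an unadjusted p under 0.05; the mitochondrially encoded genes have the highest median, 0.22, and the other 23 medians lie between -0.09 and 0.04.

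Stress and metabolic pathways gave medians near zero with a few single genes at the unadjusted threshold. Of 43 NRF2 antioxidant genes, 2 were higher and 1 lower. Hmox1, heme oxygenase 1, was at 309, 285 and 300 TPM and at 279, 277 and 272 TPM (-0.11, -0.20 to -0.02), with every Q11 value under every M2 value. Me1, malic enzyme, was at 37.6, 38.6 and 39.0 TPM and at 41.9, 43.6 and 42.7 TPM (0.15, 0.06 to 0.25), with every Q11 value above. Nqo1, a quinone reductase, was between 1.15 and 2.69 TPM in all libraries (-0.11, -0.73 to 0.51). Without M2 replicate 3 the difference for Nqo1 was 0.11.

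Of 38 ATF4 amino acid stress genes, 32 were below zero with a median of -0.04, and 1 was higher and 2 lower at the unadjusted threshold. In 9 of the 38 all Q11 values lay under all M2 values and in 1 above them, where over all genes 5.70% lay wholly under and 7.09% wholly above. Atf4 itself was at 579, 594 and 634 TPM and at 590, 604 and 577 TPM (-0.03, -0.13 to 0.07), and without M2 replicate 3 its difference was 0.01. Slc38a2, a neutral amino acid transporter, had the highest difference among members at 5 TPM or more (0.11, 0.01 to 0.21) and Ddit4, an inhibitor of mTORC1, the lowest (-0.21, -0.47 to 0.04). Of 31 genes of the ER unfolded protein response and 28 heat shock genes, 0 in either list passed the unadjusted threshold. Of 49 cell cycle genes, 1 was higher and 0 lower, with a median of 0.00, and of 41 genes of p53, cell death and ferroptosis, 1 was higher and 0 lower. Of 46 genes of lysosome and phagocytosis, 1 (2.17%) was higher and 2 (4.35%) were lower, beside 3.64% and 2.96% of all genes. The higher gene was Ncf1, a subunit of the phagocyte NADPH oxidase (0.12, 0.04 to 0.19). In 8 of the 46 all Q11 values lay under all M2 values and in 3 above them, beside 5.70% and 7.09% of all genes. The median was -0.03 with 28 below zero, and 0.005 with 21 below zero without M2 replicate 3.

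Hmgcs1, which makes HMG-CoA for cholesterol synthesis, had tightly grouped values. It stood at 74.8, 75.2 and 72.9 TPM in the M2 libraries and at 84.7, 82.8 and 82.2 TPM in the Q11 libraries. The difference was 0.16 (0.08 to 0.24; limma adjusted p = 0.734), with no overlap. The other 28 cholesterol synthesis genes did not share it as a list: 12 of all 29 were below zero and the median was 0.02. Scd1, the stearoyl-CoA desaturase, was the lowest (23.1, 23.0 and 24.2 TPM and 20.4, 16.7 and 21.4 TPM, -0.26, -0.48 to -0.04). Hif1a, the oxygen-regulated transcription factor, was at 46.2, 51.2 and 42.2 TPM and at 54.1, 60.4 and 56.3 TPM (0.29, 0.10 to 0.47), while the 38 glycolysis and hypoxia genes had a median of -0.04 with 1 higher, 3 lower and 28 below zero. That median was -0.01 without M2 replicate 3, with 21 of 38 below zero. Lpl, lipoprotein lipase (0.12, 0.01 to 0.23), and Lipe, hormone-sensitive lipase (-0.24, -0.47 to 0.00), lay on opposite sides of zero, and neither passed the adjusted threshold.

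Mitochondrially encoded transcripts, the respiratory chain subunits and ATP synthase subunits made from mitochondrial DNA, had the highest median of any list. Of the 13 genes, 11 were above zero, 6 were higher at an unadjusted p under 0.05 and 0 were lower, with a median of 0.22. In 6 all Q11 values lay above all M2 values, as they did in 964 of all genes (7.09%). The median was 0.15 to 0.28 over 19 alternative settings, which reuse the same libraries and are not separate evidence. Rescaling moves all genes of a library by nearly the same amount, so it could hardly change the sign. The 6 became 1 without Q11 replicate 2 and 2 without M2 replicate 3. Their summed share of TPM was 5.80%, 6.27% and 5.27% in the M2 group, 6.39%, 6.66% and 6.70% in the Q11 group and 6.52%, 6.30% and 6.41% in control. The Q11 shares were all above the M2 shares, by little over M2 replicate 2, and lay near those of control. M2 replicate 2 was near control as well. The list stands out by its difference from these M2 libraries, which by itself favours such a pattern.

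Among these genes mt-Co1, a cytochrome c oxidase subunit, was at 15651, 16594 and 15331 TPM and at 16940, 18075 and 17640 TPM (0.15, 0.01 to 0.28). Under quantile normalization the difference for mt-Co1 was 0.00. That method gives genes of equal rank the same value in every library, so for so abundant a gene this value says little. mt-Atp6, an ATP synthase subunit, was at 128, 112 and 148 TPM and at 169, 196 and 183 TPM (0.50, 0.25 to 0.74). By limma its adjusted p was 0.734. Its level was far under that of mt-Co1, and it was named after its values were seen. Whether its reads were shared with other genes was not tested. mt-Nd6, a complex I subunit, had the highest difference and a wide spread, at 2716, 3524 and 1406 TPM and at 3359, 3699 and 3595 TPM, a difference of 0.58 whose interval began at -0.14 and so included zero. M2 replicate 3 was the low one for mt-Nd6. The library kit selected poly-A RNA, and how mitochondrial transcripts pass that step was not tested.

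Cytoplasmic ribosomal protein genes lay on the other side of zero. Of 82 tested, 76 were below zero, 0 were higher and 12 lower at the unadjusted threshold, and 19 had all Q11 values under all M2 values, with a median of -0.08. Over all genes 2.96% were lower at that threshold, and 776 (5.70%) had Q11 values wholly under the M2 values. The 12 lower genes became 9 without Q11 replicate 2 and 5 without M2 replicate 3, and the median became -0.04 without Q11 replicate 2. Over the 19 settings the median stayed between -0.10 and -0.03. Rpl41, the smallest ribosomal protein, had the lowest difference, at 1523, 1478 and 1599 TPM and at 1330, 1104 and 1345 TPM (-0.29, -0.48 to -0.10). Q11 replicate 2 was the lowest library for Rpl41, but the other 2 Q11 libraries also lay under all M2 libraries. Rpl22l1, a paralog of Rpl22, was the highest of the better expressed members (0.13, -0.05 to 0.31).

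The nuclear genes of the respiratory chain resembled the ribosomal protein genes rather than the mitochondrial ones in their sign. Of 78, 66 were below zero, with 0 higher and 8 lower at the unadjusted threshold and a median of -0.06, which was -0.03 without Q11 replicate 2. Ndufa3, a small subunit of complex I, had the lowest difference (153, 148 and 152 TPM and 135, 104 and 135 TPM, -0.29, -0.52 to -0.05). Cox5a, a cytochrome c oxidase subunit, had the highest (0.11, -0.07 to 0.28).

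Many of the genes of both lists are short, and gene length moved with the difference over all protein-coding genes. In the shortest quintile of protein-coding genes at 5 TPM or more (1851 genes with up to 2515 exonic bases), 46 were higher and 142 lower at the unadjusted threshold. In the longest quintile (1849 genes with at least 7517 bases), 71 were higher and 8 lower. The shortest quintile held 56 of the ribosomal protein genes and 54 of the nuclear respiratory chain genes. The trend was steepest in a pair of libraries: relative to the mean of the 6 libraries, the median level of the shortest quintile was -0.04 in Q11 replicate 2 and 0.03 in M2 replicate 3, and that of the longest quintile was 0.04 and -0.03. Without M2 replicate 3 there were 42 higher and 94 lower genes in the shortest quintile and 15 higher and 6 lower in the longest. Without Q11 replicate 2 there were 59 higher and 101 lower in the shortest and 21 higher and 10 lower in the longest. Over all genes tested there were 495 higher and 403 lower, 342 and 280 without M2 replicate 3, and 418 and 409 without Q11 replicate 2. With either library left out, the excess of higher genes among the longest was smaller. Lower genes still outnumbered higher ones among the shortest. The median difference of the shortest quintile was -0.03, and -0.02 with either library left out. That of the longest quintile was 0.02, and 0.01 with either left out. The part of length in the differences of the ribosomal protein and respiratory chain genes was not tested.

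**Figure D5:**
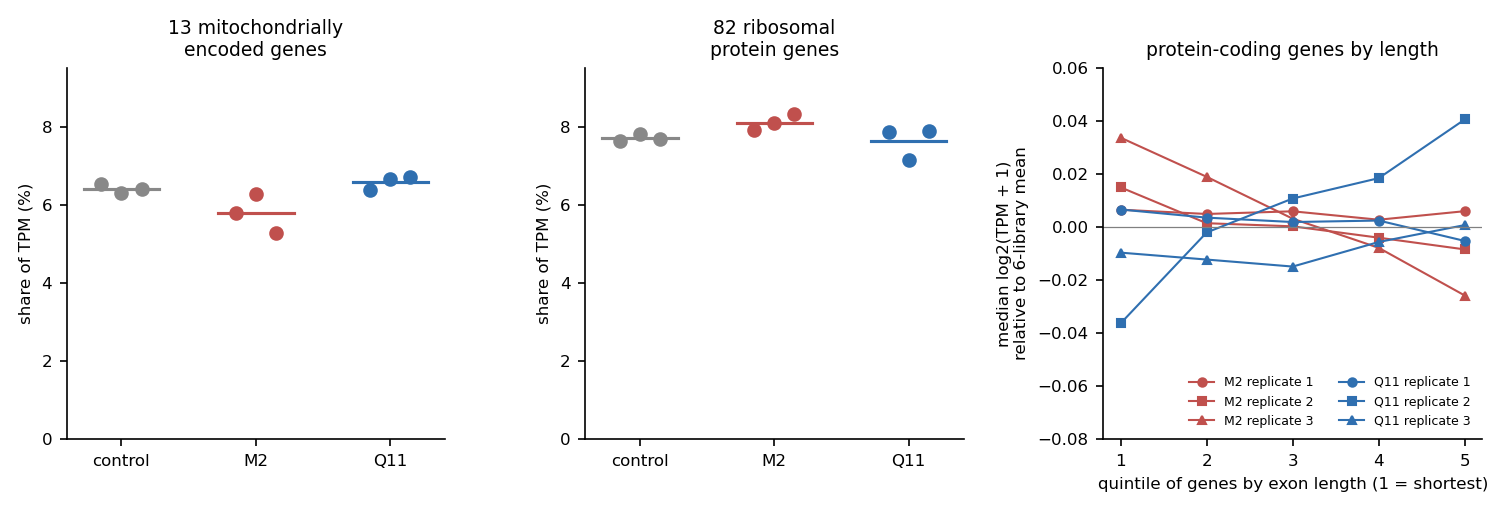
Left and middle, share of TPM (%) taken by 13 mitochondrially encoded and 82 ribosomal protein genes in each library, with lines at group means. Right, median log2(TPM + 1) of protein-coding genes relative to the 6-library mean in quintiles by exon length; Q11 replicate 2 climbs from -0.04 to 0.04 from short to long genes and M2 replicate 3 descends from 0.03 to -0.03.

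The same libraries stood apart by other measures. The SD of the log2 difference between 2 libraries, over 10093 genes at 5 TPM or more, was 0.299 to 0.345 for pairs with Q11 replicate 2 and 0.291 to 0.345 for pairs with M2 replicate 3, against 0.246 to 0.258 for the other pairs. With the deposited column the SD of Q11 replicate 2 was 0.236 to 0.242 against M2 replicates 1 and 2 and Q11 replicate 1, and 0.154 against Q11 replicate 3, so by this measure it stood apart only after the subtraction. M2 replicate 3 stood apart with either column. The ribosomal RNA gene Rn18s-rs5 was at 1929, 1542 and 2722 TPM in the M2 libraries and at 1930, 7499 and 2302 TPM in the Q11 libraries, highest in Q11 replicate 2.

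Among genes at an unadjusted p under 0.05 whose groups did not overlap and whose higher group averaged at least 5 TPM, the 10 highest differences fell mostly on processed copies of ribosomal protein genes. Of the 10, 8, such as Rpl28-ps1 (63.4, 69.1 and 59.6 TPM and 85.1, 137 and 92.8 TPM, 0.67, 0.27 to 1.07) and Rps6-ps4 (15.1, 15.1 and 7.81 TPM and 18.1, 27.2 and 23.0 TPM, 0.83), carry a ribosomal pseudogene symbol. Their reads can be shared with the parent genes, so their values are uncertain. Over all 106 ribosomal protein pseudogenes tested, 75 were above zero with a median of 0.23, the opposite sign from the parent genes. At the unadjusted threshold 18 (17.0%) were higher and 1 (0.94%) lower, beside 3.64% and 2.96% of all genes. Higher genes were also frequent in wider classes, at 7.11% of 1012 pseudogenes, these included, and 8.28% of 326 small or structural RNAs. Lower genes made up 3.56% and 5.21% of those classes.

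The other 2 of the 10 highest were Psme2b, a copy of the proteasome activator subunit gene Psme2 (13.1, 9.95 and 10.5 TPM and 17.2, 18.0 and 15.8 TPM, 0.57, 0.31 to 0.83), and Cebpzos (8.09, 8.50 and 9.99 TPM and 11.1, 14.5 and 15.6 TPM, 0.57, 0.25 to 0.90). Reads of Psme2b can likewise be shared with Psme2. None of the 10 passed the adjusted threshold.

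The 10 lowest differences under the same rule were C8g, Phpt1, Tma7-ps, Bckdha, Myl6b, H2-Bl, AI839979, Morn2, Kctd11 and Amhr2. C8g, the complement component 8 gamma chain, was at 6.26, 5.86 and 5.18 TPM and at 3.72, 1.93 and 3.89 TPM (-0.73, -1.24 to -0.22). Bckdha, a subunit of the branched-chain keto acid dehydrogenase, was at 14.6, 13.3 and 14.0 TPM and at 9.76, 11.1 and 9.17 TPM (-0.44, -0.65 to -0.24). In untreated cells Bckdha was at 10.7, 10.8 and 9.70 TPM, so its Q11 values lay near those of control. The gene was picked for its difference from the M2 libraries, which by itself favours such a pattern. H2-Bl, an MHC class I gene with close relatives in the same family, was at 24.2, 23.0 and 24.4 TPM and at 19.0, 16.8 and 17.7 TPM (-0.40, -0.55 to -0.25; limma adjusted p = 0.627). For Bckdha and H2-Bl the gap between the groups exceeded the range within either group, and neither passed the adjusted threshold. Both were chosen by p-value and lack of overlap in these data, so the gap is not separate evidence.

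Cisd3, a mitochondrial iron-sulfur protein gene, is named because it had one of the smallest p-values and was chosen after its values were seen. It was at 73.8, 76.1 and 76.6 TPM in the M2 libraries and at 89.7, 92.9 and 89.6 TPM in the Q11 libraries (0.26, 0.18 to 0.35). By limma its adjusted p was 0.476. The spread within each group was under 4 TPM, and the groups were separated by more than 10 TPM. Since the gene was chosen for its small p-value, this separation is not separate evidence.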

How the data were processed

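Per the labels' protocols, poly-A RNA of J774A.1 was made into libraries with NEBNext Ultra reagents. The submitters' processing notes list the aligner HISAT2 2.0.5, the assembler StringTie 1.3.3b and the build GRCm38. The values are TPM of 26157 genes in a single table that the authors deposited. No source used here states the annotation release or the counting settings, strand included, so overlapping and antisense genes cannot be told apart. Members, gene lists and tests were chosen with earlier results of these data known.

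TPM multiplied by exon length (GENCODE M21, 97.8% of IDs matched) gave whole reads for 98.8% to 99.2% of values up to 20 reads, with a tolerance of 0.1 read. The separated column of Q11 replicate 2 was (its TPM minus 0.526 times the TPM of replicate 3) divided by the remainder, with values below 0 set to 0 and the former sum restored. Genes with a deposited TPM of at least 1 in 3 or more of the 6 libraries were fitted as log2(TPM + 1), with limma 3.58.1 in R 4.3.3 (eBayes with trend, 4 residual and a median of 2.89 prior degrees of freedom), two-sided, with Benjamini-Hochberg adjustment over every gene fitted. Intervals are unadjusted 95% intervals. The M2 minus control values come from the same model fitted to all 9 libraries, Q11 included. That fit has more residual degrees of freedom than the fit of Q11 against M2. The script was tested on simulated data.

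Genes named were a fixed list of 27, the 10 highest and 10 lowest differences at an unadjusted p under 0.05 with no overlap and at least 5 TPM (no clone-like or small RNA symbols, 7SK included), and the highest and lowest member of each list at 5 TPM or more. Some genes under this rule or in the lists are not reported here. Members given in addition, chosen after their values were seen, were Ccl7, Socs1, Jak1, Jak3, Tyk2, Nfkb2, Ctsk, Spp1, Vegfb, Cyp51, Por, Ahr, mt-Atp6 and Cisd3. Markers of other cell types served only as the check of the label. Tables and figures were made in Python 3.11.15 (pandas 2.3.3, numpy 2.4.6, matplotlib 3.10.9).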

Additional observations from a re-analysis of the deposited data

How the results depend on the processing

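The count of genes past the adjusted threshold was 0 in all but 3 of the alternatives run. Without the mean-variance trend it was 3 (1700001D01Rik, Gm25558 and Gm22442), without Q11 replicate 2 it was 1 (Gm11545, lower with Q11), and with the columns as deposited and M2 replicate 3 left out it was 1 (Mir6399, higher). Leaving out each library in turn gave 0 to 1 such genes, 622 to 1170 genes at an unadjusted p under 0.05, and 2794 to 3684 genes without overlap between groups, where fewer libraries make overlap rarer. The columns as deposited gave 1529 genes at the unadjusted threshold and limma-voom on those columns 1840, and the deposited columns without M2 replicate 3 gave 3803 genes without overlap. Averaging Q11 replicates 2 and 3 as 1 sample gave 3125 genes without overlap. With no filter on low values 21395 genes had an interval within 2-fold, because more genes were tested. Same-numbered libraries did not deviate together (r of -0.03, -0.01 and -0.08), and the fit with the replicate number as a block gave 0 genes past the adjusted threshold and 798 at the unadjusted one. The limma-voom fits on the deposited columns and the deposited columns without M2 replicate 3 were chosen after seeing the data. Of 1553 pairs of a named gene and an alternative, 1538 had the sign of the reported difference, 15 the other sign, and 0 passed the adjusted threshold. Many named genes were chosen for extreme differences or lack of overlap in these same data, which favours an unchanged sign. The count is therefore no measure of stability. Intervals were widest for genes under 5 TPM, and the part of depth in this was not tested.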
